A study of Mus musculus with 6 samples.

Results

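The Adora2a striatal projection neurons of the Foxr2 alone tissue were nuclei of 1 mouse brain library, chosen by their RNA. Of the 10096 barcodes of Foxr2 alone replicate 1, 5817 held at least 1000 UMIs (unique molecular identifiers, 1 per captured RNA molecule), at most 5% mitochondrial UMIs, and at least 0.2% of UMIs in Snap25, Syt1, Rbfox3, Celf4 and Grin2b, and were taken as neurons. Of these, 678 (11.7%) had at least 1 UMI of Adora2a or Gpr6, at least 1 of Rgs9, none of Drd1 and at most 1 of Slc17a7. These 678 nuclei are called Adora2a nuclei here. The whole series held 22125 barcodes in 3 libraries.

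The library was single-nucleus Multiome, in which RNA and open chromatin (ATAC) are read from the same nucleus. The tissue was C57BL/6J brain, labelled as brain tumor with Foxr2 overexpression. A piggyBac construct with Foxr2 under the CAG promoter and GFP, and another with Akaluc and GFP, had been electroporated into the ganglionic eminences of embryos, so the tissue mixed cells that took up DNA with cells that did not. The age of the animals was not given in the sources used here. The second Foxr2 alone library was not analysed here beyond its barcodes and peak positions, and in the library that combined Foxr2 with p53 loss of function (p53LOF) only 8 barcodes met the same rule, so every comparison below was made within 1 library, with no replicate check. Intervals are exact 95% intervals and cover counting error only. Some barcode sequences were shared between libraries, 140 with the p53LOF library (5 of them in Adora2a nuclei) and 19 with the second Foxr2 alone library (1 of them in Adora2a nuclei).

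Striatal projection neurons are the GABA-releasing output cells of the striatum. Those of the indirect pathway carry the dopamine receptor Drd2, the adenosine receptor Adora2a and the enkephalin precursor Penk, and act to restrain movement, while those of the direct pathway carry Drd1, the tachykinin precursor Tac1 and the dynorphin precursor Pdyn, and promote it. Both share a signaling machinery in which dopamine and adenosine receptors act on cyclic AMP through Gnal, Adcy5, Ppp1r1b (DARPP-32) and Pde10a.

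The Adora2a nuclei were set against the 5139 other neurons of the library and against 904 Drd1 nuclei, which had Drd1 and Rgs9 but no Adora2a or Gpr6 and are part of the other neurons. Adora2a nuclei had a median of 6987 UMIs and 8172.5 ATAC fragments in peaks, other neurons 7905 and 8282, and Drd1 nuclei 7522 and 8277. Scrublet marked 9.73% of Adora2a nuclei, 13.3% of other neurons and 12.3% of Drd1 nuclei as possible doublets. The 1358 cortical glutamatergic nuclei (median 10348 UMIs) and 340 interneuron nuclei (median 6592.5 UMIs) gave further reference levels.

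The rule used Adora2a, Gpr6, Rgs9, Drd1 and Slc17a7, so their RNA is a description. Of the 678 nuclei, 310 had Adora2a without Gpr6, 138 had Gpr6 without Adora2a and 230 had both. Gpr6 is an orphan receptor and Rgs9 a striatal regulator of G-protein signaling. Levels are given as CPM, the UMIs counted for a gene in every 1000000 UMIs pooled over a set. The 94 nuclei just inside the rule, with 1 UMI of Adora2a or Gpr6 and 1 of Rgs9, were at 486 CPM of Drd2 and 2197 CPM of Penk. Just outside it, the 155 nuclei without a Rgs9 UMI were at 498 CPM of Drd2 and 2408 of Penk, and the 773 nuclei without an Adora2a or Gpr6 UMI were at 192 and 826. The nuclei next to the edge on the Rgs9 side thus had levels like those of the members, and they were counted among the other neurons. The 87 nuclei that failed only by a Drd1 UMI had a median of 13332 UMIs, and Scrublet marked 20 of them. They were at 244 CPM of Drd2, 1352 of Penk and 439 of Tac1. The 79 that failed only by 2 or more Slc17a7 UMIs had a median of 15494, and 43 were marked. These 79 were at 199 CPM of Drd2 and 1209 of Penk. Both sets were counted among the other neurons.

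Drd2 is the marker that the rule did not use, and it set the Adora2a nuclei apart. It was at 537 CPM (interval 518 to 557, from 2852 UMIs) in Adora2a nuclei, 62.9 in other neurons, 14.4 in Drd1 nuclei, 2.31 in cortical glutamatergic nuclei and 29.9 in interneuron nuclei. The log2 ratio was 3.09 (3.02 to 3.17) over other neurons and 5.22 (4.95 to 5.52) over Drd1 nuclei. Thinned to 1000 UMIs a nucleus, 41.7% (37.9 to 45.5) of Adora2a nuclei kept a Drd2 UMI, against 0.920% (0.406 to 1.78) of Drd1 nuclei and 0.227% (0.0638 to 0.572) of the 1822 oligodendrocyte nuclei that served as a measure of free RNA (unthinned 93.7%, 3.98% and 0.439%, with a median of 1311 UMIs in oligodendrocyte nuclei). Drd2 thus stood far above the free RNA level in Adora2a nuclei.

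The enkephalin precursor of the indirect pathway was also highest in Adora2a nuclei. Penk was at 2681 CPM (2637 to 2725) in Adora2a nuclei, 340 in other neurons, 209 in Drd1 nuclei, 34.5 in cortical glutamatergic nuclei and 107 in interneuron nuclei. Its log2 ratio was 2.98 (2.95 to 3.01) over other neurons and 3.68 (3.61 to 3.76) over Drd1 nuclei. After thinning, 82.9% of Adora2a nuclei and 14.7% of Drd1 nuclei kept a Penk UMI, while oligodendrocyte nuclei gave 6.91%.

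**Figure D1:**
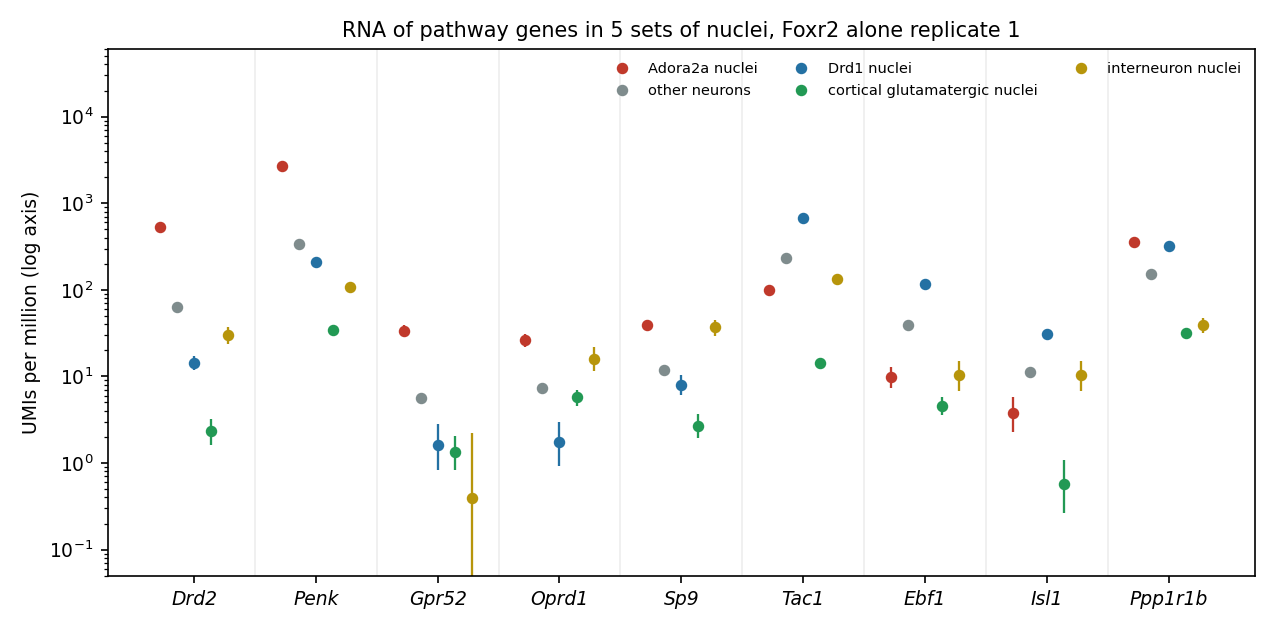
Level in CPM (log axis) of 9 genes in 5 sets of nuclei of Foxr2 alone replicate 1, each point the pooled level of a set and each bar its exact 95% counting interval. Drd2, Penk, Gpr52 and Oprd1 were highest in Adora2a nuclei, Tac1, Ebf1 and Isl1 in Drd1 nuclei, Ppp1r1b was near equal in both, and Sp9 was at 39.4 in Adora2a and 36.7 in interneuron nuclei.

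Against other neurons, 187 of 10103 genes outside the rule genes (1.85%) were at least 2-fold higher in Adora2a nuclei and 712 (7.05%) at least 2-fold lower, among genes with at least 10 CPM in either set. Against Drd1 nuclei the counts were 44 (0.451%) and 105 (1.08%) of 9755. Fewer genes thus differed from the Drd1 nuclei than from the mixed neurons. With other neurons limited to the central depth range of the Adora2a nuclei, 89 genes were 2-fold higher and 589 lower, and with Drd1 nuclei limited likewise, 55 were higher and 73 lower.

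Of the 9 listed indirect-pathway genes, 7 reached 10 CPM in Adora2a nuclei. Gpr52 and Sp9 did so in Adora2a but not in Drd1 nuclei, so the filter itself required them to be higher. Drd2, Penk, Grik3, Gucy1a1 and Ptprm were above 10 CPM in both sets, and these 5 were at least 2-fold higher than in Drd1 nuclei (background 0.451%). Against other neurons Drd2, Penk, Sp9 and Gucy1a1 were 2-fold higher among those above 10 CPM in both sets, while Grik3 and Ptprm were within 2-fold. Gpr52, an orphan receptor that raises cyclic AMP, was at 33.9 CPM in Adora2a nuclei, 5.62 in other neurons and 1.60 in Drd1 nuclei. Grik3, a kainate receptor subunit, was at 188 CPM in Adora2a nuclei, and at 133 in cortical glutamatergic nuclei, and its log2 ratio was 3.65 (3.36 to 3.94) over Drd1 nuclei and 0.94 (0.84 to 1.04) over other neurons. Grik3 therefore separated the projection neurons from each other more than from the remaining neurons. Sp9, a transcription factor of indirect-pathway cells, had log2 ratios of 2.30 (1.88 to 2.74) over Drd1 nuclei and 1.74 over other neurons. The guanylyl cyclase subunit Gucy1a1, a nitric oxide sensor, and the phosphatase Ptprm had log2 ratios of 1.18 and 1.27 over Drd1 nuclei. P2ry1 and Ttc12 stayed under 10 CPM, at 6.59 and 5.65 in Adora2a nuclei.

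Direct-pathway genes were low in the Adora2a nuclei. Of 10 listed genes, 9 reached 10 CPM in Adora2a or Drd1 nuclei. Ebf1, Isl1, Pdyn, Eya1, Slc35d3 and Asic4 did so in Drd1 nuclei alone, so the filter required them to be lower. Of the 3 above 10 CPM in both, Tac1 and Zfp521 were at least 2-fold lower (background 1.08%). Tac1 was at 100 CPM (92.0 to 109) in Adora2a nuclei, 230 in other neurons and 669 in Drd1 nuclei. The transcription factors Ebf1 and Isl1, which mark direct-pathway cells, were at 9.79 and 3.77 CPM in Adora2a nuclei and at 115 and 30.9 in Drd1 nuclei. Pdyn was at 5.27 and 30.1 CPM, and Zfp521, another transcription factor, at 11.1 and 67.6. The gene within 2-fold was Sfxn1, a mitochondrial serine carrier, whose log2 ratio was −0.51 (−0.74 to −0.28). Chrm4 stayed under 10 CPM in both. Summed over the 10 genes, the log2 ratio was −2.46 (−2.56 to −2.37). Tac1 made up most of that sum, which was 191 CPM in Adora2a nuclei and 1049 in Drd1 nuclei. Drd1 being set to 0 by the rule is not part of that sum.

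**Figure D2:**
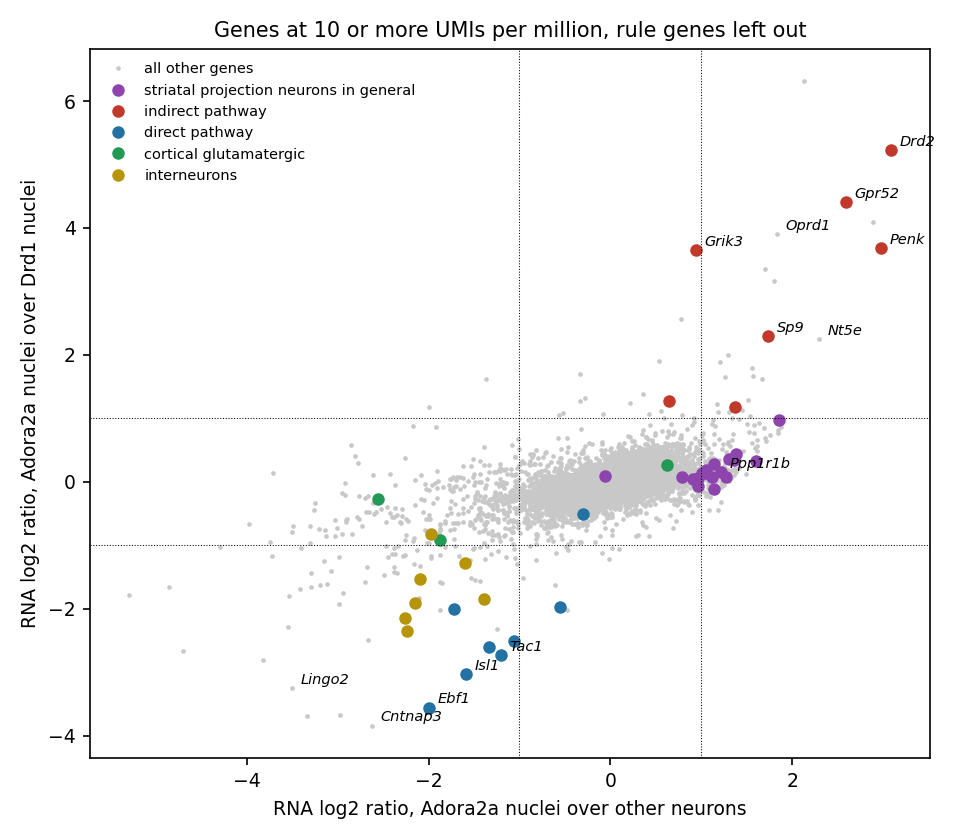
RNA log2 ratio of each gene in Adora2a nuclei over other neurons (x axis) and over Drd1 nuclei (y axis), 1 point a gene with at least 10 CPM in either set of each comparison, with listed genes in color and dotted lines at 2-fold. The 2 axes share the Adora2a nuclei, and Drd1 nuclei are part of the other neurons. Indirect-pathway genes lie at the upper right, direct-pathway genes other than Sfxn1 below the lower horizontal dotted line, and general projection neuron genes to the right near 0 on the y axis.

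The genes that projection neurons share were near equal in the Adora2a and Drd1 nuclei. Of 18 general projection neuron genes, 13 were at least 2-fold higher than in other neurons (background 1.85%), and none of the 18 passed 2-fold in either direction against Drd1 nuclei, where their median log2 ratio was 0.14. Ppp1r1b was at 356 CPM in Adora2a nuclei, 321 in Drd1 nuclei and 153 in other neurons, and Pde10a, the striatal phosphodiesterase, at 1752, 1585 and 852. In the wider list of 26 signaling genes, Oprd1, the delta opioid receptor, was the gene that passed 2-fold over Drd1 nuclei, at 26.0 CPM (21.8 to 30.7) against 1.73 (0.921 to 2.96). It reached 10 CPM in Adora2a nuclei alone, so the filter required it to be higher, and the background was 0.451%. The orphan receptor Gpr149 lay inside 2-fold over Drd1 nuclei, at a log2 ratio of 0.77, and at 1.85 over other neurons. Adcy5, Gnal and Ptpn5 had log2 ratios of 0.07, 0.06 and 0.04 over Drd1 nuclei. The other opioid receptors, Oprk1 and Oprm1, were at log2 ratios of −0.29 and −0.04 over Drd1 nuclei.

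Among 22 listed striatal transcription factors, 15 reached 10 CPM in each comparison. Against other neurons 7 were 2-fold higher and 4 lower (background 1.85% and 7.05%), and against Drd1 nuclei Sp9 was higher and 5 were lower (background 0.451% and 1.08%). Ebf1 and Isl1, among the lower, and Sp9 and Zfp503 against Drd1 nuclei passed the filter only through the set where they were high. Foxp1 was at 2006 CPM in Adora2a nuclei, 782 in other neurons and 1575 in Drd1 nuclei, whereas its relative Foxp2 was at 308, 312 and 714. Foxp2 thus separated the projection neurons from each other, with a log2 ratio of −1.21 (−1.29 to −1.13) over Drd1 nuclei, and Foxp1 separated them from other neurons. Six3, needed for indirect-pathway neurons in development, was at 65.2 CPM, 21.7 and 44.8 in the same order. Meis1 and Meis2, homeodomain factors of the TALE class, were both higher than in other neurons, at log2 ratios of 1.58 and 1.15. Mef2c was lower than in other neurons (195 against 549 CPM) and level with Drd1 nuclei (196). Gsx2 had no UMI in Adora2a nuclei.

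Of 15 listed potassium and sodium channel genes, 14 reached 10 CPM against other neurons, where 1 was 2-fold higher and 3 lower (background 1.85% and 7.05%). The higher gene was Scn4b, a sodium channel subunit (197 against 65.0 CPM), and the lower genes included Kcnj6 and Kcnip1. Against Drd1 nuclei none of the 15 was higher, and Kcnj6 and Kcnip1 were lower (background 1.08%), at log2 ratios of −1.78 and −1.29. Kcnj6, the GIRK2 channel, was at 3.95 CPM in Adora2a nuclei, 156 in other neurons, 13.6 in Drd1 nuclei and 300.1 in cortical glutamatergic nuclei. It was under 10 CPM in Adora2a nuclei, so the filter required it to be lower in both comparisons. Of 24 transmitter receptor genes, none was 2-fold higher than in other neurons and Grin3a, Grm8 and Gabra5 were lower (background 7.05%). Against Drd1 nuclei Grik3 was higher (background 0.451%) and Grin3a lower (8.10 against 17.8 CPM, background 1.08%). Grin3a was under 10 CPM in Adora2a nuclei, so the filter required it to be lower in both comparisons. Gad1 and Gad2, which make GABA, and its vesicular transporter Slc32a1 were at 160, 311 and 73.1 CPM, within 2-fold of Drd1 nuclei.

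Immediate early genes, which neurons switch on with activity, showed no 2-fold rise. Of 14 listed genes, 5 reached 10 CPM against other neurons, of which none was 2-fold higher and Nr4a1 was lower (background 7.05%), at 6.21 CPM against 13.3, so that the filter required it to be lower. The summed level was 415 CPM in Adora2a nuclei, 346 in other neurons and 404 in Drd1 nuclei, a log2 ratio of 0.26 (0.20 to 0.33) and 0.04 (−0.04 to 0.12). Homer1 made up most of that sum, and Fos had 5 UMIs in all Adora2a nuclei. The proliferation gene Top2a had no UMI in the 678 nuclei, which, at the floor of 3 counts, allows a share of up to 0.442% with a UMI and sets no limit on nuclei expressing it, and Mki67 was at 4.71 CPM, near the 4.79 of Drd1 nuclei.

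Among genes with at least 20 CPM in either set, the interval of the ratio lay beyond 2-fold for 76 higher and 345 lower genes against other neurons and for 18 and 39 against Drd1 nuclei. Upb1, an enzyme of pyrimidine breakdown, was at 33.9 CPM in Adora2a nuclei and 4.57 in other neurons, and its start lies 84.2 kb from that of Adora2a. Gucd1, 201.1 kb from the Adora2a start, was at 62.0 CPM in Adora2a nuclei, a log2 ratio of 1.56 (1.37 to 1.74) over other neurons. Both were found by looking only among the named genes, so other genes near Adora2a on chromosome 10 were not examined. Upb1 was under 20 CPM in other neurons, so the filter required it to be higher. Nt5e, the ectoenzyme CD73 that makes adenosine from AMP, was at 119 CPM in Adora2a nuclei, 24.3 in other neurons, with a log2 ratio of 2.25 over Drd1 nuclei. Prkd1, a protein kinase, and Synpo2, an actin-binding protein, had log2 ratios of 1.64 and 1.61 over other neurons. Nell1 and Plxdc1 were at 169 and 38.4 CPM in Adora2a nuclei and 45.5 and 10.4 in Drd1 nuclei. Nell1 was also at 139 CPM in cortical glutamatergic and 184 in interneuron nuclei. Plxdc1 was under 20 CPM in Drd1 nuclei, so the filter required it to be higher.

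The lowest named genes against other neurons were high in cortical glutamatergic or interneuron nuclei. All were under 20 CPM in Adora2a nuclei, so the filter required them to be lower there. The integrin Itga8 was at 0.942 CPM in Adora2a nuclei and 2.66 in Drd1 nuclei, against 165 in cortical glutamatergic nuclei. Vip, an interneuron peptide, was at 1.32 CPM in Adora2a and 1.06 in Drd1 nuclei, against 336 in interneuron nuclei. Against Drd1 nuclei, the adhesion genes Cntnap3 (11.9 against 170 CPM) and Lingo2 (121 against 1154) were among the lowest by ratio. Cntnap3 was under 20 CPM in Adora2a nuclei, so the filter required it to be lower. Lingo2 was at 1845 CPM in cortical and 1209 in interneuron nuclei, so the Adora2a nuclei stood below each of these sets, although 20 nuclei held 76.4% of their Lingo2 UMIs.

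Of 5 striosome genes, 4 reached 10 CPM and none passed 2-fold against either set. Of 4 matrix genes, Sv2b was 2-fold lower than in other neurons (113 against 305 CPM, background 7.05%) and none passed against Drd1 nuclei. With so few genes, and with most of all genes within 2-fold, these counts do not set the lists apart. Of 4 ventral or medial genes, 3 reached 10 CPM in Adora2a or Drd1 nuclei. Wfs1 was 2-fold lower, at 41.4 CPM against 86.5 in Drd1 nuclei (background 1.08%), and 2 were within 2-fold. Of 5 genes of eccentric projection neurons, 4 were under 10 CPM in both Adora2a and Drd1 nuclei, and Otof, at 2.82 CPM against 16.6 in Drd1 nuclei, passed the filter through the Drd1 nuclei alone.

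Markers of other cells were also read in the Adora2a nuclei, and their part in the results was not tested. The 5 oligodendrocyte genes summed to 411 CPM in Adora2a nuclei, 409 in other neurons and 12839 in oligodendrocyte nuclei. The 14 interneuron genes summed to 378 in Adora2a nuclei and 1550 in other neurons, and the 9 cortical glutamatergic genes to 336 and 472, against 640 in cortical glutamatergic nuclei. Tle4 made up 297 CPM of the cortical sum in Adora2a nuclei. Of the 7 cortical genes that reached 10 CPM, 6 were 2-fold lower than in other neurons (background 7.05%), of which only Cux2 was above 10 CPM in both sets. The summed interneuron level ranged from 0 to 34513 CPM over single Adora2a nuclei with a median of 101. Of 5 astrocyte genes only Gfap was 2-fold higher than in other neurons (background 1.85%), at 18.1 CPM against 7.35, and it was also higher than in Drd1 nuclei (4.52 CPM, background 0.451%). It reached 10 CPM in Adora2a nuclei alone, so the filter required it to be higher in both comparisons, and 1 nucleus held 54.2% of its UMIs. Without that nucleus Gfap was at 8.31 CPM, and its log2 ratio was 0.18 (−0.31 to 0.63) over other neurons and 0.88 (0.20 to 1.57) over Drd1 nuclei. Ptgds, an oligodendrocyte and meningeal transcript, was also uneven, since 54 nuclei held 70.1% of its UMIs and 40 of the 54 were marked as doublets. Th and Slc6a3, which define midbrain dopamine neurons, had no UMI.

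The vectors gave few UMIs. Foxr2, the gene overexpressed, was at 4.52 CPM in Adora2a nuclei (24 UMIs), 3.36 in other neurons and 4.08 in oligodendrocyte nuclei, and after thinning 0.448% (0.0936 to 1.30) of Adora2a nuclei and 0.324% (0.118 to 0.708) of oligodendrocyte nuclei kept a UMI. PiggybacTransposase had 10 UMIs in Adora2a nuclei, 10 in Drd1 nuclei and 380 in other neurons, 271 of them in cortical glutamatergic nuclei. These are raw counts from unlike totals. Adora2a nuclei held 5310201 UMIs in all, Drd1 nuclei 7518489, other neurons 47651065 and cortical glutamatergic nuclei 15575614. GFP was at 28.4 CPM in Adora2a nuclei, 24.0 in other neurons, 32.5 in Drd1 nuclei and 36.0 in oligodendrocyte nuclei. After thinning, 2.54% (1.49 to 4.02) of Adora2a nuclei and 2.70% (2.01 to 3.56) of oligodendrocyte nuclei kept a GFP UMI (unthinned 11.2% and 3.62%). For Akaluc the thinned shares were 0.628% (0.181 to 1.56) and 1.37% (0.885 to 2.01). None of these thinned shares was detectable above that of oligodendrocyte nuclei, whose median was only 1311 UMIs. Interneuron nuclei, with a median of 6592.5 UMIs, were at 11.6 CPM (7.75 to 16.6) of GFP, and 1.29% (0.382 to 3.15) kept a GFP UMI after thinning. Unthinned, 5.29% (3.17 to 8.24) of interneuron nuclei held a GFP UMI, against 11.2% (8.93 to 13.8) of Adora2a nuclei. Which set gives the right background was not tested.

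The Adora2a nuclei varied in both Drd2 and Penk. Drd2 ran from 150 CPM at the 10th percentile of nuclei through a median of 509 to 1064 at the 90th, and 43 nuclei had none. Penk ran from 698 CPM through a median of 2301 to 5103, and 15 nuclei had none. The spread was measured as the variance of UMIs over nuclei divided by that of counting at each nucleus's depth, whose median was 1.20 over the 4896 genes with at least 200 UMIs. It was 1.64 for Drd2, 9.64 for Penk and 1.35 for Gad2. This ratio rises with the number of UMIs a gene has, so it does not rank Drd2 against Penk.

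**Figure D3:**
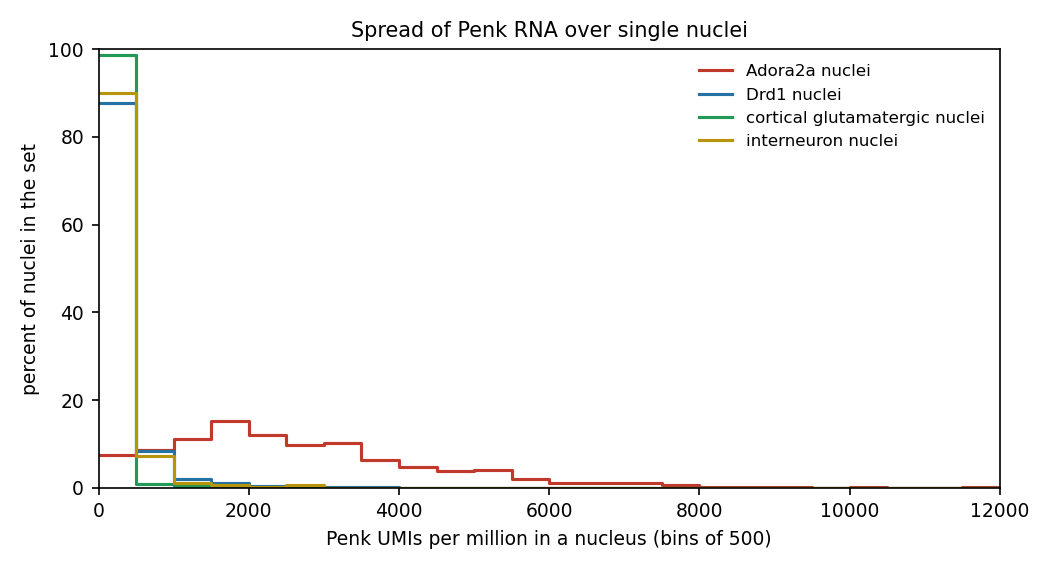
Percent of nuclei (y axis) in bins of 500 Penk CPM (x axis) for Adora2a, Drd1, cortical glutamatergic and interneuron nuclei. Adora2a nuclei spread broadly around a median of 2301, while 87.7% of Drd1 and 98.7% of cortical glutamatergic nuclei lie in the lowest bin, against 7.37% of Adora2a nuclei.

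Some genes were carried by a few nuclei. Of the 533 Tac1 UMIs, 14 nuclei held 39.4%, and none of the 14 was marked as a doublet. Of the 453 Sst UMIs, 5 nuclei held 65.8%, and 3 of those 5 were marked as doublets. Those 5 nuclei had a median of 17814 UMIs and were at 1200 CPM of Nxph1, an interneuron gene, against 33.5 in the other 673. Drd2 was at 328 CPM in those 5 and 540 in the 673, so the few Sst-rich nuclei did not carry the Drd2 level. Sorted by the number of Adora2a and Gpr6 UMIs, Penk was at 2317 CPM in the 297 nuclei with 1, 2644 in the 181 with 2 and 3175 in the 200 with 3 or more, while Tac1 was at 131, 113 and 50.3. The median depth of these nuclei also differed, at 6593, 6993 and 7762 UMIs.

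Chromatin was not used to choose the nuclei, so ATAC is an independent readout of the same nuclei. Accessibility was counted as fragments in peaks that overlap the span of a gene's start sites, widened by 2000 bases on each side. It is given per 1000000 fragments in peaks (FPM), and a gene with distant start sites sums several peaks. At Drd2 it was 29.2 (24.8 to 34.2) in Adora2a nuclei, 7.52 in other neurons, 2.42 in Drd1 nuclei and 1.95 in cortical glutamatergic nuclei, a log2 ratio of 1.96 (1.67 to 2.24) over other neurons and 3.59 (2.87 to 4.41) over Drd1 nuclei. At Penk it was 57.6, 25.1 and 23.0 in Adora2a nuclei, other neurons and Drd1 nuclei, a log2 ratio of 1.20 (1.01 to 1.38) over other neurons. Both starts were thus more open in the nuclei chosen on RNA.

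The rule genes followed the same order in chromatin. Accessibility at the Adora2a start was 15.2 FPM in Adora2a nuclei, 7.19 in other neurons and 3.56 in Drd1 nuclei, and over the whole gene span with 2000 bases on either side it was 38.7, 10.9 and 5.55. At Gpr6 it was 51.4, 14.7 and 10.7. Drd1, which the rule required to be at 0 in RNA, was at 5.50 (3.68 to 7.90), 16.1 and 30.6. Rgs9, shared by both kinds of projection neuron, was at 150 and 151 in Adora2a and Drd1 nuclei, and Ppp1r1b at 84.2 and 88.0. The Rgs9 level summed several peaks along the gene, and the single peak over its start was at 28.6 and 31.3.

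Of the 9 indirect-pathway genes, 8 had at least 10 FPM at their starts in either set, and for all 8 the interval of the log2 ratio over Drd1 nuclei lay above 0, as it did for 4.30% of 14384 genes. Of those 8, only Penk and Sp9 were above 10 in both sets, so the filter required the other 6 to be higher. Of the 10 direct-pathway genes, 9 had such counts and 8 had an interval below 0, as did 4.36% of all genes. Among the 9, Chrm4, Sfxn1, Zfp521 and Asic4 were above 10 in both sets, and 3 of these 4 had an interval below 0, the exception being Sfxn1. Isl1 was at 4.17 FPM in Adora2a nuclei and 23.9 in Drd1 nuclei, Ebf1 at 2.65 and 22.3, and Tac1 at 5.12 and 22.2. Of the 18 general projection neuron genes, 14 had an interval above 0 over other neurons, as did 18.6% of 14825 genes, and 3 over Drd1 nuclei.

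**Figure D4:**
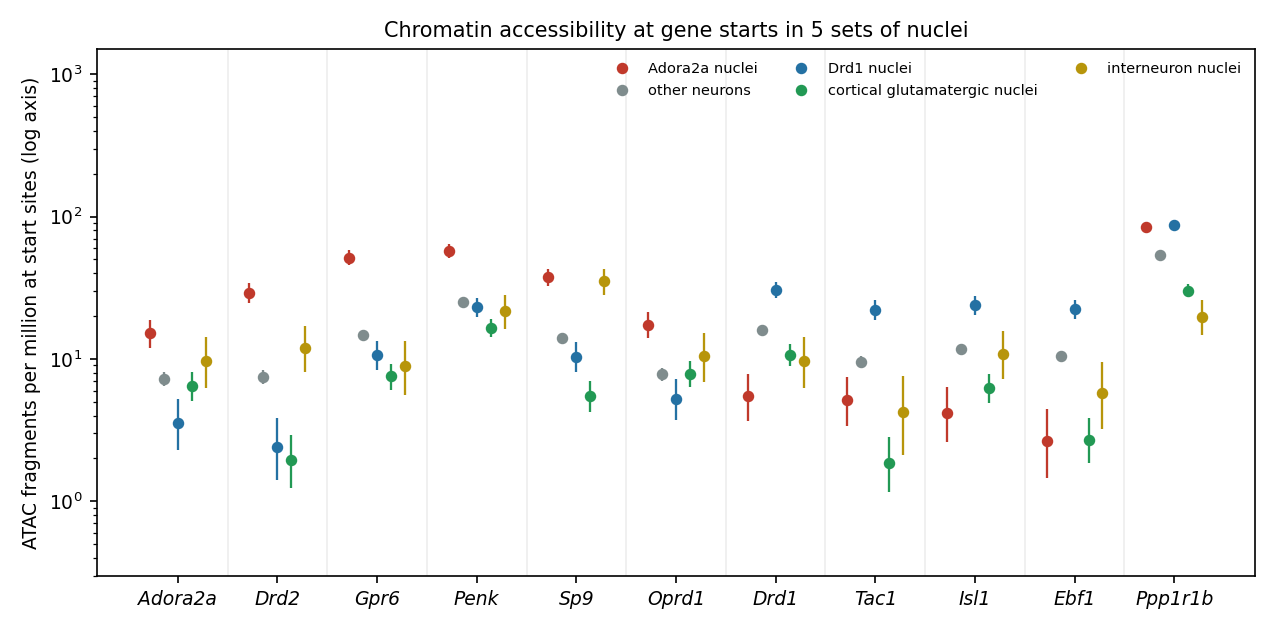
ATAC FPM (log axis) at the start sites of 11 genes in 5 sets of nuclei, with exact 95% counting intervals. Adora2a, Drd2, Gpr6, Penk and Oprd1 were most open in Adora2a nuclei, Drd1, Tac1, Isl1 and Ebf1 in Drd1 nuclei, and Ppp1r1b was at 84.2 and 88.0 in these 2 sets.

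RNA and chromatin moved the same way for most genes that differed. Of the 187 genes that were 2-fold higher in RNA than in other neurons, 149 had at least 10 FPM at their starts in either set, and 142 of those (95.3%) had a log2 ATAC ratio above 0, with a median of 0.54. Of the 551 such genes that were 2-fold lower, 75 (13.6%) lay above 0, with a median of −0.50. Among the tested genes within 2-fold, 58.2% lay above 0. Against Drd1 nuclei, 29 of 32 higher genes lay above 0 and 8 of 65 lower genes did. These shares are across genes of 1 library, and genes are not replicates.

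Over all peaks, 2611 of 30202 (8.65%) were at least 2-fold more open in Adora2a nuclei than in other neurons and 961 (3.18%) at least 2-fold less open. With 5 FPM added to both sets, 264 were more and 352 less open. Against Drd1 nuclei the counts were 228 (0.773%) and 138 (0.468%) of 29497. The latter counts depended strongly on the setting, with 437 and 361 under a stricter rule, 1782 and 1605 with nuclei weighted equally, 80 and 43 with 5 FPM added and 0 and 0 at a minimum of 50 FPM. The peaks more open than in other neurons had low counts, with a median of 15.4 FPM in Adora2a nuclei and 6.74 in other neurons, against 17.3 and 14.5 over all tested peaks, so many passed the filter through the Adora2a nuclei alone. Of these peaks, 1.38% had their center within 1000 bases of a protein-coding start, against 32.7% of all tested peaks, and their median distance was 55.5 kb against 10.4 kb, values that describe this set of low-count peaks. Of the same 2611 peaks, 73.6% overlapped a peak called in the second Foxr2 alone library and 16.0% a peak called in the p53LOF library, against 84.9% and 70.8% of all tested peaks. With other neurons limited to the depth range of the Adora2a nuclei, 1445 peaks were 2-fold more open.

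Several of the named peaks lay near Drd2, Gpr6 and Penk, and others lay far from any gene start. The sequences below are the central 300 bases of 4 peaks and the RefSeq promoter of Gpr6 in mm10 (GRCm38), shown because their regions lie at or near genes that mark either pathway and are described next, with matches to the searched motifs in capitals. Peaks are on the plus strand and the promoter is on the minus strand.
Gpr6 promoter, chr10:41072241-41072540: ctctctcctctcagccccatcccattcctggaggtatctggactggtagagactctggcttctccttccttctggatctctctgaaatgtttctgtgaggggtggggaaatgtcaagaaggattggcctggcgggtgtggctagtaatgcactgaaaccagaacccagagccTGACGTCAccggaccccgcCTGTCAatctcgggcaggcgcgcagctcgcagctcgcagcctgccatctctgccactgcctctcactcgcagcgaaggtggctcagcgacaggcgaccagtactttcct
Drd2 upstream peak, chr9:49246662-49246961: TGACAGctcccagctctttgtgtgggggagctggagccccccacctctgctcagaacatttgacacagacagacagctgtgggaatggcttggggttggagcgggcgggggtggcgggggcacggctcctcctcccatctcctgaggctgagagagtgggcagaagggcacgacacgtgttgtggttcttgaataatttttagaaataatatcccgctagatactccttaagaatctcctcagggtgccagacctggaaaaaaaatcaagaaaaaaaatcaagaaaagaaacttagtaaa
Drd2 intron peak, chr9:49386202-49386501: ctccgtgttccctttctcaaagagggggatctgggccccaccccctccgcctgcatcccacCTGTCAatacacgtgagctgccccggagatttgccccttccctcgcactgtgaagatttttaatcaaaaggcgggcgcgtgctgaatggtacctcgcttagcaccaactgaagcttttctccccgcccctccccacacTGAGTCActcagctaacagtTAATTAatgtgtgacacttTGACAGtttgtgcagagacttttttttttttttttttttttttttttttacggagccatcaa
Penk upstream peak, chr4:4231689-4231988: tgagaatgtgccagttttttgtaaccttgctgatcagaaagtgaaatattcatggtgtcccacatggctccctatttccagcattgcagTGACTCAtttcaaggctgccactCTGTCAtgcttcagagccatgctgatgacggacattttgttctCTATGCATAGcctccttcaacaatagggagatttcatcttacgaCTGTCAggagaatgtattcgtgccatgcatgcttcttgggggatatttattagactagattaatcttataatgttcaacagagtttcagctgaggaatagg
Pdyn upstream peak, chr2:129712938-129713237: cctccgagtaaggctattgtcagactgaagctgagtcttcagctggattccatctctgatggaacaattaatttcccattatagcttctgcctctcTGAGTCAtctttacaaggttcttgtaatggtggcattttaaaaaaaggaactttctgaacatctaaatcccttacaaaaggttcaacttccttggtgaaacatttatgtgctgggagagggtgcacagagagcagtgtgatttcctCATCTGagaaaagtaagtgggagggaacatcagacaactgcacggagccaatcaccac

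The intergenic peak at chr9:49246368-49247256, 93.8 kb upstream of the Drd2 start and 3.7 kb from that of Gm4894, was at 36.0 FPM (31.1 to 41.5) in Adora2a nuclei, 8.91 in other neurons, 8.11 in Drd1 nuclei and 2.88 in cortical glutamatergic nuclei. The peak at chr9:49385891-49386812, in an intron of Drd2 and 45.7 kb into the gene, was at 48.0, 13.5 and 22.0 in Adora2a nuclei, other neurons and Drd1 nuclei. The intronic peak was thus open in Drd1 nuclei too, where the Drd2 start was at 2.42. The peak over the Gpr6 promoter, at chr10:41071935-41072767, was at 32.6 FPM in Adora2a nuclei, 8.58 in other neurons and 5.83 in Drd1 nuclei. It had the largest log2 ratio over Drd1 nuclei among the named peaks, 2.48 (1.99 to 3.01).

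The peak at chr4:4231380-4232297, 93.0 kb upstream of Penk and intergenic, was at 40.4 FPM in Adora2a nuclei, 10.8 in other neurons and 14.9 in Drd1 nuclei. A peak in an intron of Gucd1, 158.4 kb downstream of the Adora2a start, was at 25.4, 7.09 and 8.39, and a peak 65.4 kb upstream of Grik3 at 34.1, 9.21 and 12.4. Among the named peaks, that with the highest ratio over other neurons lay at chr2:81101195-81102080, at 25.4 FPM against 5.35. That peak was intergenic and 484.4 kb from the nearest protein-coding start (Nup35).

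Of the 5 named peaks with the lowest ratios over Drd1 nuclei, 4 were at or downstream of Drd1, the farthest 260.4 kb from its start, and the fifth was the peak 13.2 kb upstream of Pdyn, at 8.91 FPM in Adora2a nuclei and 31.9 in Drd1 nuclei. The lowest, 254.9 kb from the Drd1 start, was at 2.46 (1.31 to 4.21) against 29.9. Against other neurons, the 2 lowest were in an intron of Zbtb16, at 6.64 and 7.58 FPM in Adora2a nuclei with log2 ratios of −1.91 and −1.79, and were at 66.0 and 59.3 FPM in oligodendrocyte nuclei. Both were low in Drd1 nuclei too, at 10.4 and 7.25 FPM. They were at 38.6 and 44.8 in cortical glutamatergic and 37.4 and 30.1 in interneuron nuclei.

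Of 11 short motifs searched on both strands in the central 300 bases of peaks, that of MEIS factors, TGACAG, was found in 44.5% (42.5 to 46.4) of the peaks more open than in other neurons and in 29.9% of all tested peaks over 1000 bases from a start. The homeodomain core TAATTA was found in 13.7% (12.4 to 15.1) of the more open peaks and 7.13% of those distal peaks. The NEUROD E-box CAGATG stood the other way, in 36.4% (33.3 to 39.6) of the less open peaks, 23.7% of distal peaks and 21.4% of the more open peaks. The AP-1 motif TGANTCA was in 24.6% of the more open, 12.8% of the less open and 20.5% of the distal peaks. The more open peaks had a median GC content of 46.0%, the distal peaks 50.7% and the less open peaks 52.3%, and the part of GC content in these shares was not tested. Neither called set was limited to distal peaks. Of the 961 less open peaks, 16.4% had their center within 1000 bases of a start, against 1.38% of the 2611 more open. The part of this mix in the motif shares was not tested.

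Against Drd1 nuclei the MEIS letters were found in 44.3% (37.7 to 51.2) of the 221 more open peaks searched. They were in 26.1% (18.9 to 34.4) of the 134 less open ones, and in 30.2% of the distal peaks tested in this comparison. TAATTA was in 17.6% (12.9 to 23.3), 8.96% (4.71 to 15.1) and 7.67% in the same order. The less open peaks were thus near the distal share for both. Median GC content was 47.7%, 50.5% and 50.3%, and its part was not tested. Of all 138 less open peaks, 13.8% had their center within 1000 bases of a start, against 5.70% of all 228 more open, and the part of this was not tested. Among the sequences above, the Gpr6 promoter held the MEIS letters and the CRE letters TGACGTCA, which are in 19.2% and 1.79% of 32817 RefSeq promoters of the same length. The Drd2 intron peak held MEIS, AP-1 and homeodomain letters. The Penk peak held MEIS and AP-1 letters and a match to the loose MEF2 pattern (CTA, any 4 bases, then TAG). Its 4 middle bases were TGCA, and a pattern that takes any 4 bases does not mark a MEF2 site. A match describes the letters and does not show that a factor bound.

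**Figure D5:**
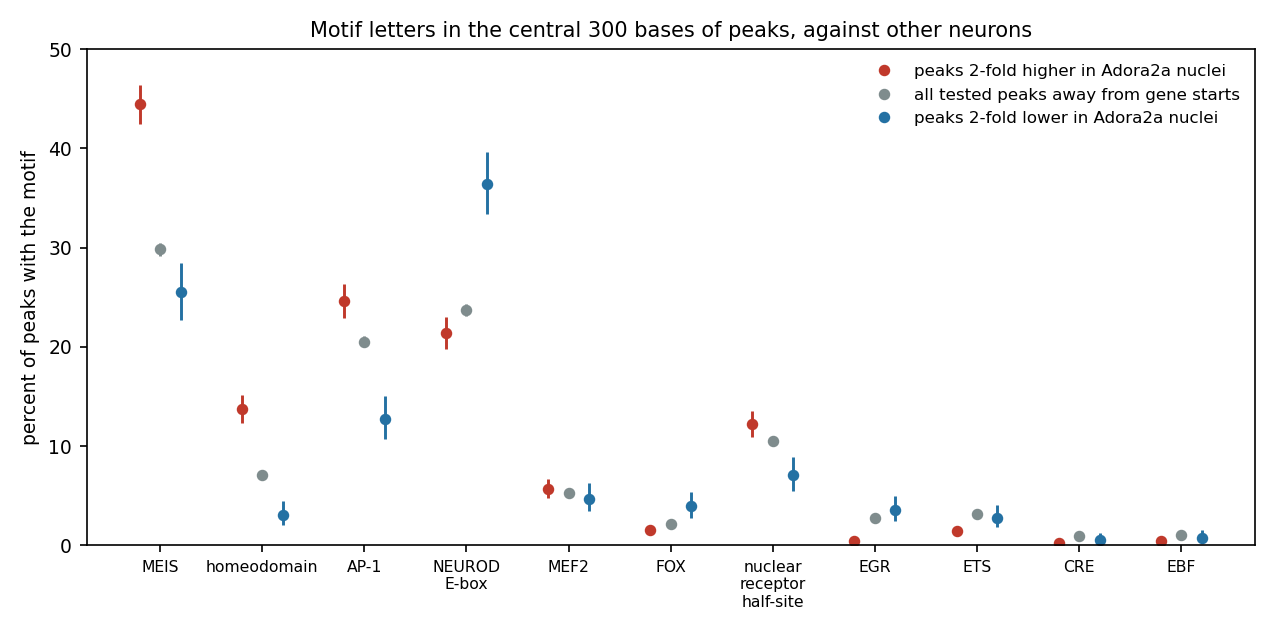
Percent of peaks (y axis) whose central 300 bases hold each of 11 motifs (x axis), for peaks 2-fold more or less open in Adora2a nuclei than in other neurons and for all tested peaks over 1000 bases from a gene start, with exact 95% intervals. MEIS and homeodomain letters were more frequent in the more open peaks and the NEUROD E-box in the less open peaks.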

How the data were processed

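Nuclei from frozen brain tissue were profiled by 10x Multiome. Per the labels, the authors ran Cell Ranger ARC 2.0.0 on mm10, to which vector sequences had been added. The deposited matrix held raw counts, UMIs per gene and transposition cuts per peak, with no normalization. Cuts were turned into fragments by dividing by 2 the count of each nucleus and peak and rounding up, since 83.4% of entries in Adora2a nuclei were even. UMIs or fragments were summed over the nuclei of a set and divided by the set total, per 1000000 (CPM for UMIs, FPM for fragments). With 1 library, no test across samples was possible and no p-value is given. Exact Poisson intervals were given for levels, conditional exact intervals for ratios and Clopper-Pearson intervals for shares, at 95%, and cover counting error only. Genes and peaks were tested at 10 CPM or FPM or more in either set and called at 2-fold, with a group at 0 set to a floor of 3 counts. The 10 genes that the rule used were left out of counts and lists. Shares were thinned by computing, for each nucleus, the hypergeometric chance of keeping a UMI at 1000 UMIs. Genes were named among those with at least 20 CPM whose interval lay beyond 2-fold, the 15 highest and 15 lowest against other neurons and 10 and 10 against Drd1 nuclei, beside the listed genes. Peaks needed 25 FPM, and the 10 highest and 5 lowest were taken against other neurons (4 lower peaks passed) and 5 and 5 against Drd1 nuclei. Gene models without an established symbol were passed over. Doublets were marked with Scrublet in scanpy 1.11.5 and kept. Peaks were annotated with GENCODE M21 and sequences were taken from GRCm38 and RefSeq. Some listed genes are not reported here. The ratio code was tested on simulated counts. The motifs searched were a loose MEF2 pattern and those of FOX (TGTTTAC), AP-1, EBF (TCCC, any 2 bases, then GGGA), NEUROD, homeodomain and MEIS factors. Also searched were those of EGR (GCG, any base, then GGGCG), ETS (CCGGAAG) and CRE factors and the nuclear receptor motif AGGTCA. Overlaps between motifs were allowed and chromosome 18 was left out. The members and the gene lists were chosen with earlier results of these data known. Alternatives included the study's limits on genes, UMIs and fragments, a stricter rule, depth matching and equal weights.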

Additional observations from a re-analysis of the deposited data

Results flagged for a closer look

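In Foxr2 p53LOF replicate 1, a library that the comparisons did not use, 8 barcodes of 2766 neurons met the same rule, with a median of 14449 UMIs against 10168.5 in the other neurons of that library. They are listed because their number is above the limit that a count of 0 allows. Each held 1 UMI of either marker, 6 of Gpr6 and 2 of Adora2a in all, which is the least the rule accepts. They held no Ppp1r1b UMI and 1 Penk UMI, and Penk was at 5.38 CPM against 24.5 in the other neurons of that library. Drd2 was at 183 CPM against 36.9, its 34 UMIs lying in 2 of the 8, and Pde10a at 797 against 459. Gad2 was at 59.2 CPM against 144, Foxp1 at 167 against 267, and Slc17a6, the glutamate transporter VGLUT2, at 183 against 236. Of the Adora2a nuclei of the Foxr2 alone library, 97.8% held Penk.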

How the results depend on the processing

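No paired analysis was possible because the groups of the series share only replicate number 1 and the comparisons were made between nuclei of 1 library. The 8 ratios recomputed (RNA of Drd2, Penk and the direct-pathway and immediate early sums, and ATAC at the Adora2a, Drd2, Penk and Drd1 starts) kept their direction under the alternatives run. The Drd2 RNA log2 ratio over other neurons, 3.09, was 3.23 without nuclei marked as doublets, 2.62 under the stricter rule (2 UMIs of Adora2a or Gpr6 and 2 of Rgs9), 3.01 with depth matching and 2.97 with equal weights. The stricter rule left 274 nuclei and moved the failing ones to the other neurons. The direct-pathway log2 ratio over Drd1 nuclei, −2.46, was −2.61 under the study's limits, −2.72 under the stricter rule, −2.56 with depth matching and −2.61 with equal weights. Under the stricter rule 70 genes were 2-fold higher than in Drd1 nuclei, and 437 peaks were more and 361 less open. Depth matching gave 89 higher genes and 1445 more open peaks against other neurons. With each nucleus weighted equally, the Drd2 start had a log2 ATAC ratio of 2.45, 4406 peaks were more open than in other neurons, and 1782 were more and 1605 less open than in Drd1 nuclei. At 50 CPM or FPM, where fewer features were tested, 97 genes were higher and 259 lower than in other neurons, 18 and 34 against Drd1 nuclei, 9 peaks were more and 0 less open than in other neurons, and 0 either way against Drd1 nuclei. With 5 CPM or FPM added, 101 genes were higher than in other neurons and 62 lower than in Drd1 nuclei, 264 peaks were more and 352 less open than in other neurons, and 80 and 43 against Drd1 nuclei. Except for the smaller numbers of features at 50 and of nuclei under the stricter rule, the cause was not tested. The whole gene span in place of start sites, and a minimum of 400 fragments, were chosen after seeing the data. The span gave log2 ATAC ratios over other neurons of 1.83 for Adora2a, 1.86 for Drd2 and 1.44 for Penk. Peaks rest on few fragments each, so ratios of single peaks are limited by depth.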

Other observations

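Of the 25 tested peaks whose nearest protein-coding start was that of Galnt17, 13 were more open in Adora2a nuclei than in other neurons. The same held for 11 of 25 nearest Foxp1, 11 of 18 nearest a gene model without a name, 10 of 10 nearest Gpr6 and 10 of 10 nearest Penk, against 8.65% of all tested peaks. These genes were picked for having the most such peaks, so shares above that of all tested peaks follow from the choice. RNA of Galnt17, a glycosyltransferase gene, was at 159 CPM in Adora2a nuclei and 121 in other neurons, a log2 ratio of 0.39, so the many open peaks near it stood beside a small RNA difference. Peaks less open than in other neurons made up 5 of 9 tested peaks nearest Drd1, and 4 each of 6 nearest Zbtb16, 6 nearest Mis18a, 7 nearest Chrm4 and 8 nearest a gene model without a name, against 3.18% of all tested peaks. These genes were likewise picked for having the most less open peaks. RNA of Gpr6 and Drd1 was also used by the rule. RNA of Zbtb16, a zinc finger transcription factor, was at 14.7 CPM in Adora2a nuclei against 76.5 in other neurons, that of Chrm4 at 0.565 (3 UMIs) against 1.11, and that of Mis18a at 3.58, a log2 ratio of −0.23.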
